A study of Mus musculus with 6 samples.

Results

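The interferon-induced antiviral effector genes described here are 40 named mouse genes, chosen by symbol from textbook knowledge of the interferon response and with earlier results of these data known. Of the 40, 37 had a row among the 13960 rows (13940 gene symbols) of the unfiltered table, and Ifit3 had one only in the filtered table. Dhx58 and Ifitm3 had no row in either table and were not analysed here. Uba7 had a row but was not tested, because its library values did not match the authors' own mean. This left 36 members tested in the unfiltered table and Ifit3 tested in the filtered one. Interferons are signalling proteins that cells release on sensing virus or foreign or misplaced nucleic acid. Type I interferons bind a receptor made of Ifnar1 and Ifnar2, and the factor complex ISGF3, which holds Stat2 and Irf9, then binds the interferon-stimulated response element (ISRE) and switches on a set of genes. The proteins of this set sense foreign RNA and DNA, cut RNA, block viral entry, translation and release, and tune the response itself. Macrophages make and answer interferon, and several of these genes also rise in sterile tissue injury.

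The RNA came from the spinal cord injury site of mice after a contusion at T8, in 3 libraries at 7 days and 3 libraries at 3 days after injury. All 6 libraries carry the same genotype, a LysMCre:Rplfl/fl > CD45.1 chimera; by the usual notation the donor marrow stands before the sign and the CD45.1 host after it. In the RiboTag method Cre recombinase makes a cell tag its ribosomal protein Rpl22, and tagged ribosomes are precipitated with the RNA they hold. LysM-Cre is active in monocytes, macrophages and neutrophils, so each of these could be a source of tagged ribosomes, while resident microglia, neurons and other host cells should not be. The age of the mice, and whether each library came from its own mouse, are not given in the labels, so a p-value here reflects library-to-library spread, which may be technical. No uninjured cord or unprecipitated RNA is among the samples, and each result sets 7 days against 3 days. Levels are in FPKM, fragments scaled to transcript length and to the mapped fragments of a library, which allows levels of different genes to be compared. In bulk samples like these, fewer cells of a type and less RNA per cell cannot be told apart.

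At 7 days the antiviral genes were lower as a group: 31 of the 36 tested members fell and 0 rose (limma adjusted p of 0.05 or less). Among all 13042 tested genes 20.3% were called lower, and among the 8067 tested genes with a mean of 5 FPKM or more 14.5%. The largest fall was that of Isg15, the ubiquitin-like modifier, to 13.5% of its 3-day mean, followed by Oas2, Oasl1, Mx1 and Zbp1. The median log2 change of the 36 was -1.09, beside -0.04 for all tested genes, and the mean level of 21 of the 36 was lower by 2-fold or more, beside 25.5% of all tested genes. The 5 members that were not called were Lgals3bp, Ifitm2, Bst2, Dtx3l and Eif2ak2. At an unadjusted p under 0.05, 31 members were lower and 0 higher, and the q-values in the authors' deposited table put 30 members lower and 0 higher, beside 20.7% of tested genes lower.

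**Figure D1:**
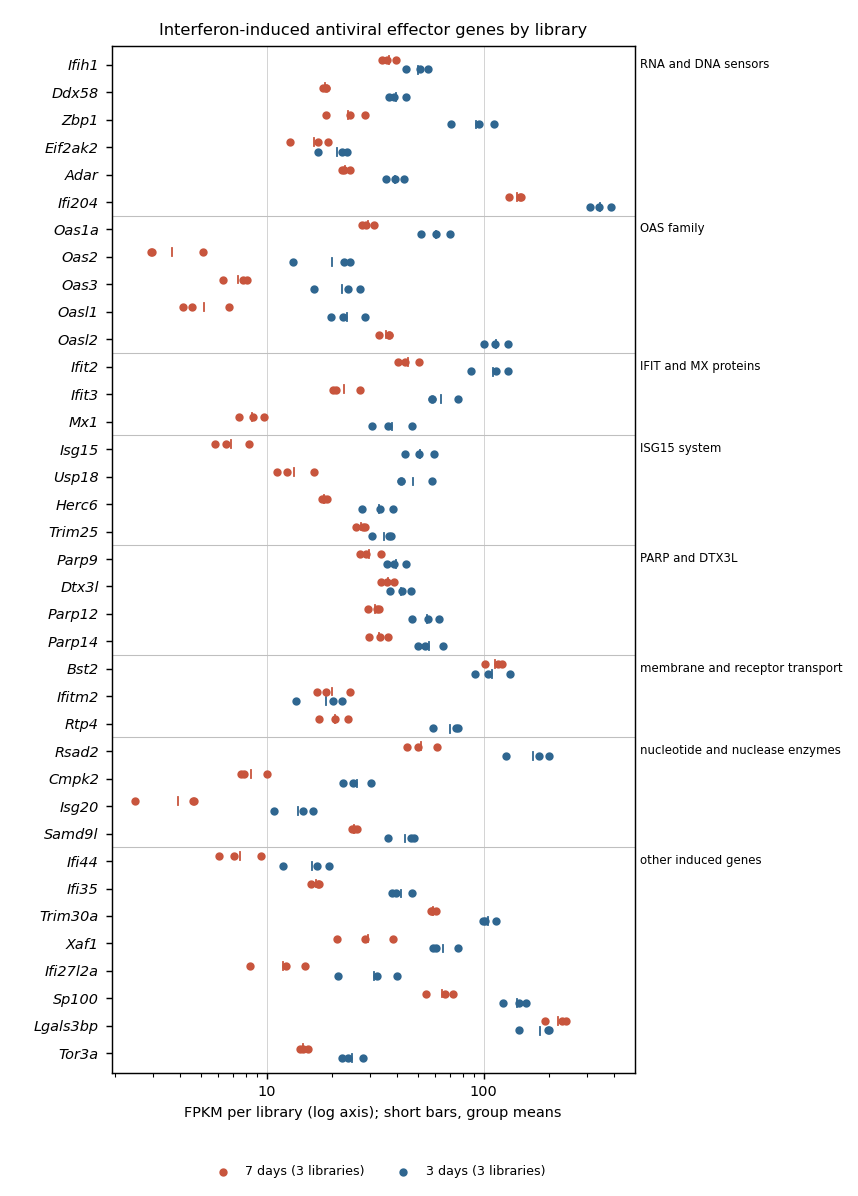
FPKM of each tested member in the 3 libraries at 7 days (upper points of each row) and the 3 libraries at 3 days (lower points), on a log axis and grouped by role, with short bars at the group means. The points of the 2 times are apart for 32 of the 37 genes shown, including Ifit3, and overlap for Eif2ak2, Dtx3l, Bst2, Ifitm2 and Lgals3bp.

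The 3 libraries at 7 days lay below the 3 at 3 days for 31 of the 36 members, which are the same 31 that were called; among all tested genes 28.6% had such an order. The summed level of the 36 members was 1201 to 1303 FPKM at 7 days, against 2189 to 2736 FPKM at 3 days. Mean levels of single members ran from 3.67 (Oas2) to 221 FPKM (Lgals3bp) at 7 days, and from 13.9 (Isg20) to 345 FPKM (Ifi204) at 3 days. Every tested member was thus above 3 FPKM on average at both times. The fall varied widely among members: the 7-day means of Isg15, Oas2, Oasl1 and Mx1 were 13.5% to 22.7% of the 3-day means, whereas those of the called genes Ifih1, Parp9 and Trim25 were 72.9% to 78.4%. These 3 were the only calls among the 36 members that any of the 16 alternatives ended; settings other than the replicate block are given with each gene. The labels and tables do not say how reads that match several genes were counted; beside the genes named for this below, Adar shared 14.4%, Herc6 12.5%, Rtp4 11.6% and Ifi35 10.4% of their 50-base transcript words with other annotated genes.

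**Figure D2:**
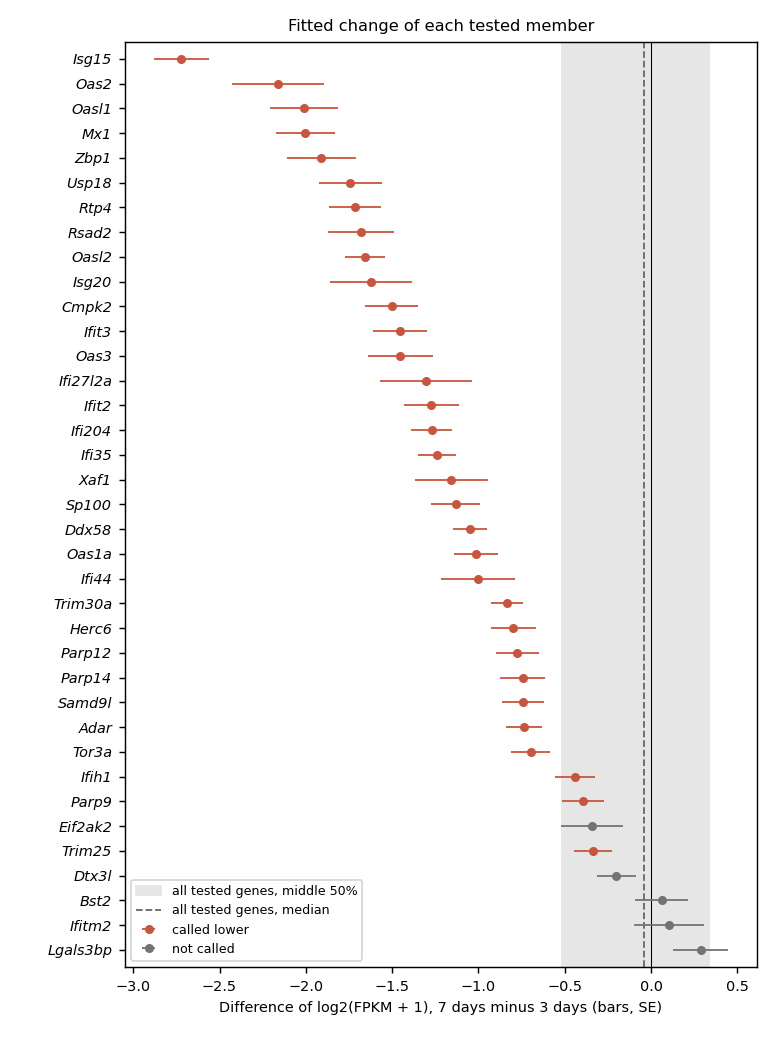
Difference of log2(FPKM + 1), 7 days minus 3 days, for each tested member, with bars for the SE; Ifit3 is from the filtered table. Isg15 lies at -2.72 and Lgals3bp at 0.29, and the shaded band holds the middle 50% of all tested genes.

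The promoters of some members hold the letters of the ISRE. Windows of 300 bases, from 250 before to 50 after the annotated start of a gene (RefSeq, GRCm38.p6), were searched on both strands for GAAANNGAAA, the core letters of the ISRE, which read TTTCNNTTTC on the other strand. Of the 40 members 29 had a window, and 12 of these 29 (41.4%) held the letters, against 3.99% of all 27025 genes with a window. The stretches around the letters are shown for the 4 members with the largest falls among those with the letters, Isg15, Rsad2, Ifit3 and Oas3. Bst2 and Ifitm2, chosen after their values were seen, are shown because they hold the letters and were not called. Each runs 5′ to 3′ on the strand of the gene, and capitals mark the matching letters, joined where matches overlap.
Isg15 (chr4:156200859-156200912, minus strand): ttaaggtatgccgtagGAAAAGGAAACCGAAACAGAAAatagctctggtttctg
Rsad2 (chr12:26456547-26456588, minus strand): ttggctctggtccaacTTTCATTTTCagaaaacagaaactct
Ifit3 (chr19:34583357-34583432, plus strand): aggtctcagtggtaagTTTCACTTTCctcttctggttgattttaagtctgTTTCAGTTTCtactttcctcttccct
Oas3 (chr5:120777709-120777750, minus strand): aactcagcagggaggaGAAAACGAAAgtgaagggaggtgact
Bst2 (chr8:71537571-71537618, minus strand): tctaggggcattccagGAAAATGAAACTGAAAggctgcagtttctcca
Ifitm2 (chr7:140955982-140956023, minus strand): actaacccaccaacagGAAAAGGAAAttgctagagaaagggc
In Isg15, 3 matches overlap in 1 run whose first base lies 78 bases before the annotated start. Bst2 holds 2 overlapping matches from 130 bases before its start, and the runs of Rsad2, Ifit3, Oas3 and Ifitm2 begin 120, 156, 75 and 46 bases before theirs. Of the 12 members with the letters 8 were called lower, 3 were tested and not called, and Ifitm3 was not analysed here; of the 17 without them in this window 14 were called lower. The letters of the other interferon element, GAS (TTCNNNGAA), were in 8 of the 29 members and in 9.55% of all genes. A match describes the sequence only, and other positions or spellings were not searched.

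The ISG15 system attaches the small protein ISG15 to other proteins, much as ubiquitin is attached. Its modifier Isg15 (GRCm38 chromosome 4, 156199424 to 156200818, minus strand; coordinates of genes are from the GENCODE annotation) measured 5.78, 6.52 and 8.32 FPKM at 7 days, against 50.4, 43.3 and 58.9 FPKM at 3 days. The highest 7-day library, replicate 3, was far below the lowest 3-day library, replicate 2. Its log2 change was -2.72 ± 0.16 (SE; adjusted p = 1.32e-04), a 7.40-fold fall in mean level. Usp18, the protease that removes ISG15 and also restrains the receptor chain Ifnar2, measured 11.2, 12.4 and 16.5 FPKM at 7 days, against 41.6, 41.6 and 58.1 FPKM at 3 days. It fell with a log2 change of -1.74 ± 0.18 (SE; adjusted p = 8.42e-04). Herc6, the ligase that attaches ISG15 in mice, fell less, to 55.7% of its 3-day mean, and its values were 18.4, 18.9 and 17.9 FPKM at 7 days, against 27.5, 33.3 and 38.4 FPKM at 3 days (log2 -0.80). The groups did not overlap for these 3 genes. Trim25, a ubiquitin ligase that acts on the RNA sensor RIG-I, measured 28.4, 25.7 and 27.8 FPKM at 7 days, against 36.5, 30.7 and 37.3 FPKM at 3 days. All 7-day values of Trim25 were lower, by a narrow margin. The log2 change was -0.34 ± 0.11 (SE; adjusted p = 0.0425), and the call was lost with centring on the median gene, with 1 prior variance for all genes, and when any 7-day library or 3-day replicate 1 or 3 was left out (adjusted p up to 0.165). Uba7, the enzyme that activates ISG15, measured 8.31, 6.001 and 7.63 FPKM at 7 days, against 9.39, 11.1 and 12.1 FPKM at 3 days, with no overlap. Its library means were 7.31 FPKM at 7 days and 10.9 FPKM at 3 days. The authors' means were 29.2 and 28.3 FPKM, so it was set aside. With such rows kept its log2 change was -0.52 (adjusted p = 0.0364). The authors' log2 change had the opposite sign, at 0.326 (q-value 0.310).

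The oligoadenylate synthetases sense double-stranded RNA and make a messenger that activates RNase L, which cuts RNA. All 5 measured members of this family fell, beside 20.3% of all tested genes called lower. Oas2 (GRCm38 chromosome 5, 120730333 to 120749853, minus strand) measured 2.94, 5.09 and 2.97 FPKM at 7 days, against 13.2, 22.7 and 24.1 FPKM at 3 days. The highest 7-day value, in replicate 2, was well below the lowest 3-day value, in replicate 1. Its log2 change was -2.16 ± 0.27 (SE; adjusted p = 0.00139). Oas3, the largest of the synthetases, measured 6.30, 8.11 and 7.80 FPKM at 7 days, against 16.5, 23.6 and 26.8 FPKM at 3 days (log2 -1.45). Oas1a measured 27.6, 31.4 and 28.7 FPKM at 7 days, against 51.3, 60.6 and 69.8 FPKM at 3 days (log2 -1.02). Both were lower in each 7-day library; Oas1a shares 57.6% of its 50-base transcript words with other genes, most with Oas1g, so its reads may be split between copies. The OAS-like proteins carry ubiquitin-like ends; Oasl1, which in mice limits the making of Irf7 protein, measured 4.11, 4.56 and 6.72 FPKM at 7 days, against 22.6, 19.8 and 28.3 FPKM at 3 days. Oasl1 fell by a log2 change of -2.01 ± 0.20 (SE; adjusted p = 6.85e-04). Oasl2, the more abundant at both times, measured 32.9, 36.6 and 36.6 FPKM at 7 days, against 112, 100.3 and 129.8 FPKM at 3 days (log2 change -1.66 ± 0.12 SE, adjusted p = 2.51e-04). Oasl2 and Oasl1 lie next to each other on chromosome 5 with 11005 bases between them, and Oas2 and Oas3, 3244 bases apart, lie farther along the same chromosome.

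IFIT proteins bind viral RNA and slow its translation, and MX proteins are dynamin-like GTPases that trap viral particles. Ifit2 (GRCm38 chromosome 19, 34550694 to 34576419, plus strand) measured 40.1, 43.5 and 50.3 FPKM at 7 days, against 114, 87.5 and 129.9 FPKM at 3 days. Its 7-day level was 40.5% of the 3-day mean and the groups were apart (log2 change -1.27 ± 0.16 SE, adjusted p = 0.00151). Its neighbour Ifit3, 7111 bases away, was in the filtered table, with 20.3, 20.9 and 26.8 FPKM at 7 days, against 57.6, 57.7 and 76.5 FPKM at 3 days. In the fit of that table Ifit3 fell with a log2 change of -1.45 ± 0.15 (SE; adjusted p = 4.11e-04); of all genes tested there, 15.0% were called lower and 24.9% higher. Of its 50-base words 51.2% are shared with Ifit3b, so its level is uncertain. Mx1 measured 7.47, 8.65 and 9.73 FPKM at 7 days, against 36.3, 30.5 and 46.97 FPKM at 3 days. The highest 7-day library was far below the lowest 3-day one, and the log2 change was -2.002 ± 0.17 (SE; adjusted p = 4.80e-04).

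Among the sensors of nucleic acid, 5 of 6 measured members fell, beside 20.3% of all tested genes called lower. Zbp1, which senses Z-form nucleic acid and can start necroptosis, measured 24.2, 28.5 and 18.7 FPKM at 7 days, against 70.9, 95.5 and 111 FPKM at 3 days. This was the largest fall of the sensors, to 25.7% of the 3-day mean (log2 change -1.91 ± 0.20 SE, adjusted p = 8.61e-04). Ifi204, a member of the IFI16-like family of DNA sensors and the most abundant member at 3 days, measured 147, 148 and 131 FPKM at 7 days, against 309, 339.8 and 387 FPKM at 3 days. Its log2 change was -1.27 ± 0.12 (SE; adjusted p = 6.22e-04); it shares 20.02% of its 50-base words with related genes and its table locus with Ifi203, which fell too (log2 -0.85). Ddx58, the RNA sensor RIG-I, measured 18.9, 18.2 and 18.9 FPKM at 7 days, against 36.7, 38.6 and 43.7 FPKM at 3 days. Its 3 values at 7 days lay within 1 FPKM of each other, and the log2 change was -1.05 ± 0.10 (SE; adjusted p = 6.24e-04). Ifih1, the related sensor MDA5 for long RNA, measured 39.7, 35.9 and 33.9 FPKM at 7 days, against 44.1, 50.95 and 55.2 FPKM at 3 days. It fell less, to 72.9% of the 3-day mean (log2 change -0.44 ± 0.12 SE, adjusted p = 0.0212), and lost the call without 3-day replicate 2 or 3 or 7-day replicate 2 or 3 (adjusted p up to 0.0759). Adar, which edits adenosine to inosine in double-stranded RNA and so hides self RNA from MDA5, measured 22.2, 24.1 and 22.8 FPKM at 7 days, against 39.1, 35.3 and 43.1 FPKM at 3 days (log2 -0.74). Eif2ak2, the kinase PKR that stops translation on meeting double-stranded RNA, measured 19.3, 12.8 and 17.3 FPKM at 7 days, against 23.5, 17.3 and 22.2 FPKM at 3 days. The values of Eif2ak2 overlapped, 7-day replicate 1 lying above the lowest 3-day library, and the log2 change was -0.34 ± 0.18 (SE; adjusted p = 0.161). Its q-value in the authors' deposited table was 0.0433, which puts it lower there.

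Rsad2 and Cmpk2 act in sequence: the nucleotide kinase Cmpk2 helps to supply CTP, which viperin, the product of Rsad2, turns into a chain terminator of viral RNA synthesis. Rsad2 (GRCm38 chromosome 12, 26442746 to 26456452, minus strand) measured 44.2, 49.6 and 60.8 FPKM at 7 days, against 181, 127 and 199.96 FPKM at 3 days. Cmpk2, on the opposite strand with 12751 bases between the genes, measured 7.63, 7.88 and 10.03 FPKM at 7 days, against 25.03, 22.5 and 30.4 FPKM at 3 days. In both genes 3-day replicate 2 was the lowest 3-day library and 7-day replicate 3 the highest 7-day library, and the times did not overlap. The log2 change was -1.68 ± 0.19 (SE; adjusted p = 0.00108) for Rsad2 and -1.50 ± 0.15 (SE; adjusted p = 7.42e-04) for Cmpk2. Isg20, an exonuclease that degrades RNA, measured 2.49, 4.58 and 4.65 FPKM at 7 days, against 10.8, 14.7 and 16.3 FPKM at 3 days. It fell to 28.03% of the 3-day mean (log2 -1.62). Samd9l, a restriction factor that acts on translation, measured 24.6, 25.3 and 26.2 FPKM at 7 days, against 36.2, 46.3 and 47.8 FPKM at 3 days and fell too (log2 -0.74).

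Of the ADP-ribosyl transferase relatives and their partner Dtx3l 3 of 4 fell, beside 20.3% of all tested genes called lower. Their median log2 change was -0.57. Parp14 measured 36.4, 29.6 and 33.3 FPKM at 7 days, against 53.96, 49.6 and 64.97 FPKM at 3 days (log2 change -0.74 ± 0.13 SE, adjusted p = 0.00499), and Parp12 measured 32.2, 33.1 and 29.4 FPKM at 7 days, against 46.8, 55.6 and 62.6 FPKM at 3 days (log2 change -0.77 ± 0.12 SE, adjusted p = 0.00358). Their 7-day libraries were all lower. Parp9 and the ubiquitin ligase Dtx3l form 1 complex, and their genes run in opposite directions on chromosome 16 and overlap by 682 bases. Parp9 measured 33.7, 28.7 and 26.9 FPKM at 7 days, against 38.7, 35.7 and 43.8 FPKM at 3 days. Dtx3l measured 38.7, 33.8 and 35.9 FPKM at 7 days, against 41.9, 37.2 and 46.2 FPKM at 3 days. Parp9 did not overlap between times and Dtx3l did, 7-day replicate 1 lying above 3-day replicate 2. Parp9 had a log2 change of -0.39 ± 0.12 (SE; adjusted p = 0.0385); its call was lost with centring on the median gene, with 1 prior variance, and without 3-day replicate 1 or 3 or 7-day replicate 2 or 3 (adjusted p up to 0.123), and its q-value in the authors' deposited table was 0.194. The log2 change of Dtx3l was -0.20 ± 0.11 (SE; adjusted p = 0.183), and it was called lower with quantile normalization (adjusted p = 0.028). The authors' table gives both genes 1 locus, so reads from their overlap may count for either.

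The membrane proteins held 2 of the 5 members that were not called. Bst2, or tetherin, which holds budding virus at the cell surface, measured 101, 122 and 116 FPKM at 7 days, against 90.95, 104 and 133 FPKM at 3 days. Its 7-day values lay inside the range of the 3-day ones. The log2 change was 0.06 ± 0.15 (SE; adjusted p = 0.762), and its sign turned with quantile normalization (-0.15) and without 3-day replicate 1 (-0.061). Ifitm2, of the family that blocks viral entry at endosomes, measured 17.1, 24.2 and 18.8 FPKM at 7 days, against 13.7, 20.2 and 22.3 FPKM at 3 days. Here too the groups overlapped (log2 change 0.10 ± 0.20 SE, adjusted p = 0.694), the sign turned without 3-day replicate 1 (-0.094) or 7-day replicate 2 (-0.033), and 48.5% of its 50-base words are shared with other annotated genes. Rtp4, an interferon-induced chaperone of membrane receptors that was grouped with them, measured 17.4, 23.8 and 20.6 FPKM at 7 days, against 58.7, 74.6 and 76.1 FPKM at 3 days. In contrast to Bst2 and Ifitm2, its 7-day values were all far below the lowest 3-day value (log2 change -1.71 ± 0.15 SE, adjusted p = 4.86e-04).

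Of the other induced genes 7 of 8 fell, beside 20.3% of all tested genes called lower. Ifi35 measured 15.96, 17.5 and 17.3 FPKM at 7 days, against 39.4, 37.8 and 47.01 FPKM at 3 days (log2 change -1.24 ± 0.11 SE, adjusted p = 5.36e-04). Its table locus is shared with Rnd2 and Vat1, and the authors' deposited q-value of Ifi35 was 0.122. Ifi27l2a measured 8.39, 14.97 and 12.3 FPKM at 7 days, against 21.2, 32.2 and 39.9 FPKM at 3 days (log2 change -1.31 ± 0.27 SE, adjusted p = 0.00873). Its relative Ifi27l1, which is not a member and shares its table locus, rose, with 30.1, 35.96 and 30.5 FPKM at 7 days, against 12.2, 19.9 and 17.9 FPKM at 3 days (log2 change 0.93 ± 0.18 SE, adjusted p = 0.00735; chosen after its values were seen). The nuclear body protein gene Sp100 measured 72.2, 66.5 and 54.3 FPKM at 7 days, against 146, 122.7 and 157 FPKM at 3 days (log2 -1.13). Xaf1, whose product counters an inhibitor of cell death, measured 21.05, 28.4 and 38.2 FPKM at 7 days, against 58.2, 60.5 and 76.4 FPKM at 3 days (log2 -1.16). For Sp100 the lowest 7-day library was replicate 3, and for Xaf1 replicate 3 was the highest. Trim30a, which in mice restrains Toll-like receptor signalling, measured 57.8, 60.4 and 57.4 FPKM at 7 days, against 102, 99.6 and 114 FPKM at 3 days (log2 -0.83). Ifi44 measured 7.06, 9.44 and 6.05 FPKM at 7 days, against 11.9, 17.04 and 19.4 FPKM at 3 days, a 7-day mean of 46.6% of the 3-day one (adjusted p = 0.0105), and the torsin family gene Tor3a measured 14.7, 14.2 and 15.5 FPKM at 7 days, against 22.3, 23.8 and 27.9 FPKM at 3 days (log2 -0.70). The exception was Lgals3bp, a secreted glycoprotein that binds galectins and the most abundant member at 7 days. It measured 192, 239.8 and 231 FPKM at 7 days, against 146, 199 and 200.4 FPKM at 3 days. The groups overlapped, although 7-day replicates 2 and 3 were above all 3-day libraries (log2 change 0.29 ± 0.16 SE, adjusted p = 0.181).

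**Figure D3:**
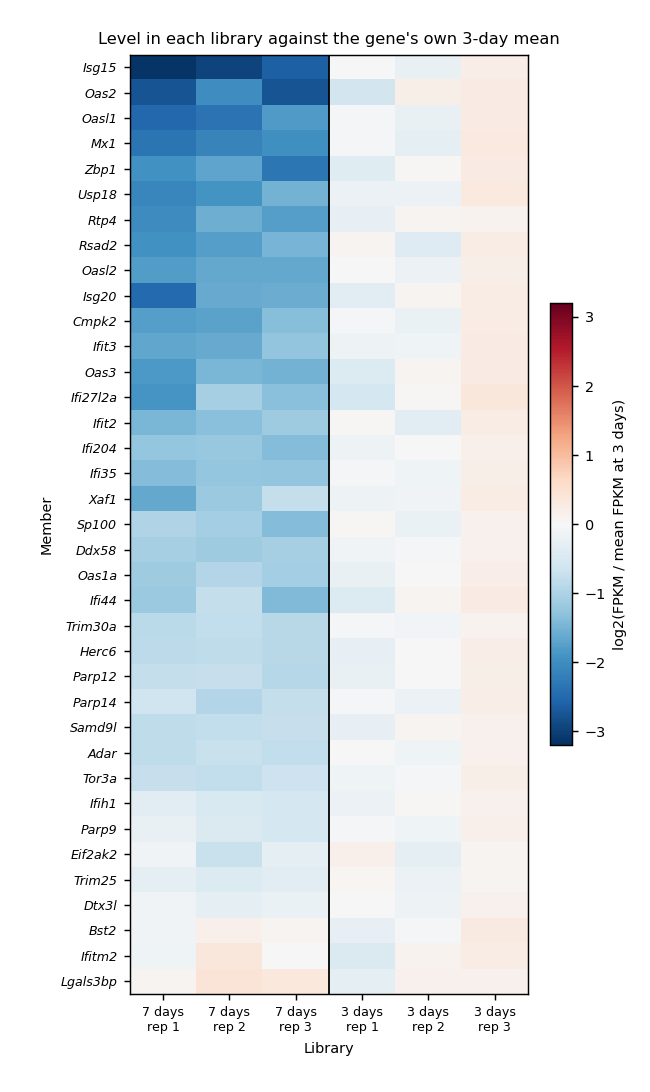
Level of each tested member in each library as log2 of its FPKM over its own mean at 3 days, 7-day libraries on the left, members ordered by fitted change. The 7-day columns are below 0 for most members, deepest for Isg15, and 3-day replicate 3 is the highest 3-day library for 36 of the 37 genes shown.

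At 3 days replicate 3 had the highest value for 36 of the 37 tested members, the exception being Eif2ak2, whereas it was the highest 3-day library for 31.2% of all tested genes and 35.3% of the 8067 with a mean of 5 FPKM or more. The summed FPKM of all tested genes was also highest there, at 412886, beside 332599 in replicate 1 and 338215 in replicate 2, and the members summed to 2736, 2189 and 2251 FPKM in the same order. Read depth relative to replicate 1 was estimated from the commonest ratio between 2 libraries among genes of low FPKM. The estimate was 0.758 in replicate 3 (32 of 588 genes at that ratio) and 0.939 in replicate 2 (22 of 354 genes). It is rough, since few genes hold the commonest ratio. The part of depth or of the library-wide difference in the members' order was not tested. At 7 days the sum of all tested genes was 384166 to 405636 FPKM. The lowest 3-day library was replicate 1 for 20 members, among them Oas1a, Oas2, Oas3, Zbp1, Ifi44, Rtp4 and Isg20. It was replicate 2 for the other 17, among them Isg15, Usp18, Rsad2, Cmpk2, Ifit2, Mx1, Oasl1 and Oasl2. At 7 days these last 8 genes were all lowest in replicate 1 and highest in replicate 3. At 7 days replicate 2 was the highest library for 16 members, replicate 3 for 13 and replicate 1 for 8. Without 3-day replicate 3, 28 of the 36 members were called lower and the median log2 change was -1.01.

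Upstream of these genes the pathway did not move one way. Of 43 interferon signalling genes on the lists used, 29 had a row and 26 were tested; 7 were lower, 6 higher and 13 not called, beside 20.3% of all tested genes lower and 18.8% higher. With centring on the median gene the split was 4 lower and 9 higher, and 4 were lower without 3-day replicate 3 or without 7-day replicate 2 or 3. The 10 genes of interferons on the list had no row in either table and were not analysed here. Of 6 receptor chains on the list, 3 were tested and these rose, while Ifnlr1 and Il10rb had no row. Ifnar2 measured 261, 304 and 272 FPKM at 7 days, against 164, 171 and 191 FPKM at 3 days (log2 change 0.67 ± 0.11 SE, adjusted p = 0.00412). Ifngr1, the binding chain of the receptor for interferon gamma, measured 149.6, 147 and 121 FPKM at 7 days, against 63.1, 65.1 and 67.8 FPKM at 3 days (log2 change 1.08 ± 0.11 SE, adjusted p = 7.36e-04). Its partner Ifngr2 measured 33.2, 37.3 and 38.8 FPKM at 7 days, against 18.7, 18.2 and 20.7 FPKM at 3 days (log2 change 0.89 ± 0.10 SE, adjusted p = 0.00115). No 7-day value of these 3 fell within the 3-day range. The other type I receptor chain, Ifnar1, measured 31.1, 31.4 and 31.2 FPKM at 7 days, against 24.2, 21.7 and 26.00 FPKM at 3 days, but missed the authors' mean and was set aside; with such rows kept its log2 change was 0.37 (adjusted p = 0.0233).

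The ISGF3 components Stat2 and Irf9 fell. Stat2 measured 11.5, 12.9 and 12.6 FPKM at 7 days, against 32.4, 39.2 and 39.4 FPKM at 3 days (log2 change -1.51 ± 0.11 SE, adjusted p = 3.06e-04). Irf9 measured 21.5, 24.2 and 24.1 FPKM at 7 days, against 28.5, 30.5 and 35.6 FPKM at 3 days (log2 change -0.42 ± 0.11 SE, adjusted p = 0.0251). Both were lower in every 7-day library. The call of Irf9 was lost under 5 alternatives (adjusted p up to 0.0861; centring, and without 3-day replicate 3 or any 7-day library). Irf7, the factor that amplifies interferon production and is itself induced by interferon, measured 13.99, 17.3 and 17.3 FPKM at 7 days, against 94.5, 75.6 and 111 FPKM at 3 days. It had the largest change of the signalling genes, -2.45 ± 0.16 (SE; adjusted p = 1.77e-04). Irf8, a factor of the myeloid lineage, went the other way, with 68.7, 65.3 and 72.2 FPKM at 7 days, against 42.99, 32.8 and 41.2 FPKM at 3 days (log2 change 0.81 ± 0.12 SE, adjusted p = 0.00276). The kinases Jak1 and Tyk2 were not called (log2 0.14 and -0.07).

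Of 9 genes that act upstream of interferon production 2 were higher and 0 lower, beside 18.8% of all tested genes called higher, and neither call held under all alternatives. Ikbke, a kinase that activates Irf3 and Irf7, measured 15.98, 15.9 and 15.7 FPKM at 7 days, against 11.7, 9.15 and 12.5 FPKM at 3 days (log2 change 0.49 ± 0.13 SE, adjusted p = 0.0247), and the receptor for single-stranded RNA Tlr7 measured 114, 118 and 89.8 FPKM at 7 days, against 68.4, 81.02 and 79.4 FPKM at 3 days (log2 change 0.48 ± 0.13 SE, adjusted p = 0.0259). Both lay above all 3-day values, and both lost the call with quantile normalization (adjusted p up to 0.0732 for Ikbke and 0.158 for Tlr7 over the alternatives), Ikbke also without any 7-day library and Tlr7 without 3-day replicate 1 or 3 or 7-day replicate 1 or 2. Mavs, the adaptor of RIG-I and MDA5, Mb21d1 (cGAS), Tmem173 (STING) and Tbk1 were not called (log2 0.24, -0.34, -0.24 and 0.26). Of 4 tested negative regulators 3 fell, beside 20.3% of all tested genes called lower. Socs1, which stayed under a mean of 5 FPKM, was 1 of the 3. Socs3, which restrains cytokine receptors, measured 3.53, 3.54 and 4.89 FPKM at 7 days, against 20.2, 14.8 and 19.5 FPKM at 3 days (log2 change -1.94 ± 0.17 SE, adjusted p = 5.18e-04). Samhd1, which destroys the nucleotides that viruses need, measured 78.3, 76.4 and 64.5 FPKM at 7 days, against 125, 120.2 and 151 FPKM at 3 days (log2 change -0.84 ± 0.13 SE, adjusted p = 0.00282). Both were lower in each 7-day library.

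**Figure D4:**
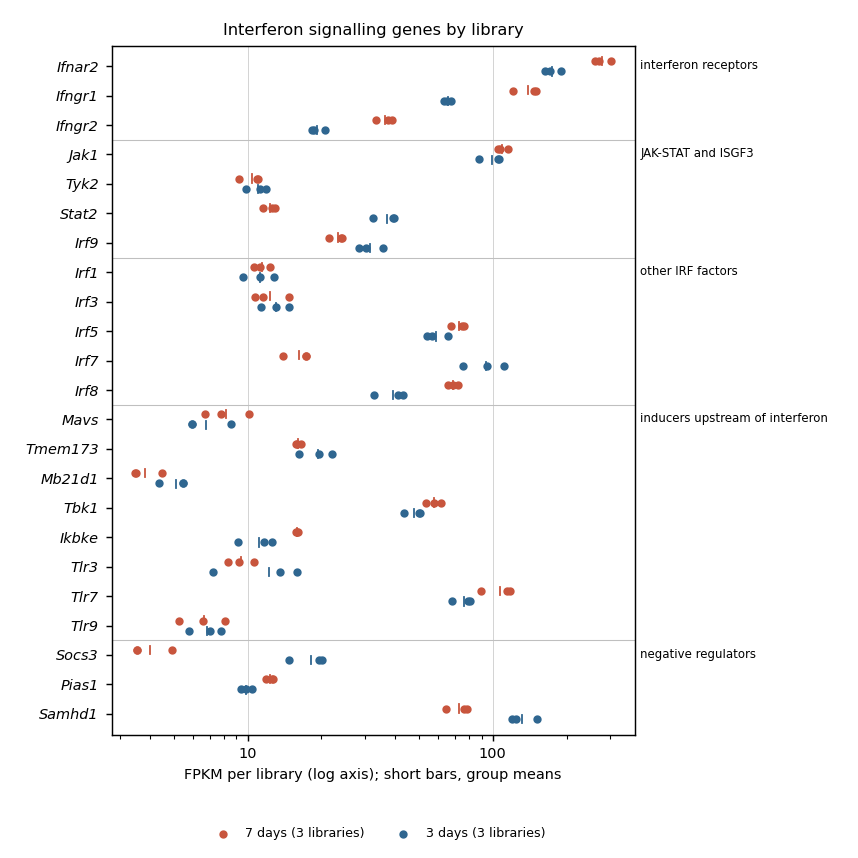
FPKM of the interferon signalling genes reported here with a mean of 5 FPKM or more at either time, 7-day libraries as the upper and 3-day libraries as the lower points of each row, on a log axis. Ifnar2, Ifngr1, Ifngr2 and Irf8 lie higher at 7 days; Stat2, Irf7, Socs3 and Samhd1 lie lower.

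Some cell type marker lists fell as the members did and others rose or held, and their part in the result was not tested. For the counts of called markers below, the shares over all tested genes were 20.3% lower and 18.8% higher. The summed level of the 5 tested macrophage markers was 1088 to 1145 FPKM at 7 days, against 1087 to 1243 FPKM at 3 days (2 lower and 2 higher of 5 tested), more than 50% of it Itgam in each 7-day library. Mertk and Csf1r rose and Fcgr1 and Cd14 fell. Emr1 (F4/80), set aside because it missed the authors' mean, measured 390.1, 444 and 458 FPKM at 7 days, against 204, 219 and 239.9 FPKM at 3 days, and Lyz2, the locus of LysM-Cre, was set aside because it was listed at 0 in 7-day replicate 3. The 7 inflammatory monocyte markers summed to 186 to 240.2 FPKM at 7 days, against 476 to 549.99 FPKM at 3 days (5 lower and 0 higher of 7 tested); Plac8, on that list, had a log2 change of -3.70. The 3 tested plasmacytoid dendritic cell markers, a cell type that also carries Bst2, summed to 35.2 to 43.6 FPKM at 7 days, against 18.3 to 24.2 FPKM at 3 days (0 lower and 2 higher of 3 tested), with Il3ra the largest part of the sum at both times. Siglech, Ccr9, Ly6d and Klk1 had no row, and Tcf4, set aside because it missed the authors' mean, measured 14.2, 19.99 and 18.6 FPKM at 7 days, against 21.6, 27.4 and 21.6 FPKM at 3 days. The 7 tested neutrophil markers summed to 31.4 to 49.1 FPKM at 7 days, against 49.4 to 54.1 FPKM at 3 days (2 lower and 1 higher of 7 tested). S100a8, the largest part of the 7-day sum, rose to 154% of its 3-day mean, and the means of the other 6 were lower, with S100a9 at 38.2% and Cxcr2 at 23.7% called. Mpo was listed at 0 in all 7-day libraries and in 3-day replicate 1. Markers of microglia, cells of the host, summed to 2170.4 to 2406 FPKM at 7 days, against 736 to 929.7 FPKM at 3 days (0 lower and 5 higher of 6 tested). Neuron markers summed to 55.9 to 70.6 FPKM at 7 days, against 159 to 379 FPKM at 3 days (8 lower and 0 higher of 8 tested), oligodendrocyte markers to 121 to 148 FPKM at 7 days, against 286 to 560.4 FPKM at 3 days (7 lower and 0 higher of 7 tested) and astrocyte markers to 106 to 132 FPKM at 7 days, against 205 to 585 FPKM at 3 days (5 lower and 0 higher of 7 tested). These 3 sums were highest in 3-day replicate 2, the 3-day library with the highest value of 0 members and the lowest value of 17. Endothelial markers gave 5 lower and 1 higher of 7 tested, fibroblast and pericyte markers 3 lower and 0 higher of 5 tested, and erythroid markers 4 lower and 0 higher of 4 tested. T and NK cell markers gave 0 lower and 0 higher of 3 tested, each under 2 FPKM in every library, and the single B cell marker with a row, Cd79b, was higher. Without 3-day replicate 2, 30 of the 36 members were called lower.

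**Figure D5:**
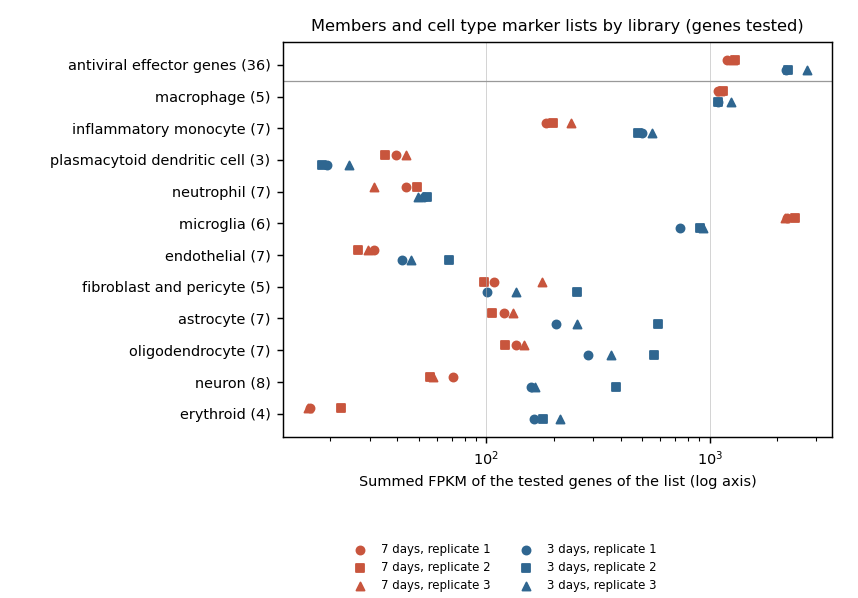
Summed FPKM of the tested members and of 11 cell type marker lists in every library on a log axis, 7-day points above 3-day points, with the number of genes summed in brackets. The members sum to 1201 to 1303 FPKM at 7 days, against 2189 to 2736 FPKM at 3 days, while the macrophage marker sums of the 2 times lie close together.

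Among genes related to the members, 8 of 9 tested interferon-induced GTPases of the GBP and IRG families were lower and 0 higher. These GTPases attack the vacuoles of microbes. Their median log2 change was -0.90, and 4 of 9 were lower by 2-fold or more. Of all tested genes 20.3% were called lower and 18.8% higher, and 25.5% were lower by 2-fold or more. Of 4 Schlafen genes tested in the same table, Slfn4 and Slfn5 were lower and 0 were higher, with a median of -0.38. Slfn4 had a log2 change of -4.17. In the filtered table alone were Igtp and Slfn1. Slfn1 fell (log2 -1.99). Igtp had the same library values there (log2 -0.72) as Irgm2, already counted among the lower GTPases, so it adds no separate measurement. Irgm1, the most abundant of the GTPases, measured 37.8, 35.4 and 39.1 FPKM at 7 days, against 56.5, 75.2 and 82.8 FPKM at 3 days (log2 change -0.90 ± 0.15 SE, adjusted p = 0.00384). Slfn5 measured 172, 151 and 168 FPKM at 7 days, against 230.1, 189 and 256 FPKM at 3 days (log2 change -0.45 ± 0.13 SE, adjusted p = 0.0346). For both genes 3-day replicate 3 was again the highest 3-day library. Differences between these families and the members were not tested.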

How the data were processed

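RNA from RiboTag precipitates of injured spinal cord was sequenced in 6 libraries, 3 at 7 days and 3 at 3 days. Per the submitters' processing notes the build was mm10, and the tools included Cuffdiff 2.2.1, Cufflinks 2.2 and TopHat2 2.0.12. The authors deposited an unfiltered table and a filtered one; per the file headers these hold FPKM for each library, group means, the log2 fold change, a test score, and p-values and q-values. The filter behind the second table and the number of reads per library are not given in the sources used here, so no interval for counting error is given. A rough relative depth, from the commonest ratio between libraries among genes of low FPKM, ranged from 0.758 to 1 at 3 days. It ranged from 1 to 1.09 among the 7-day libraries.

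Of 13960 rows, 918 were set aside: 838 whose library values missed the authors' mean by over 1%, and, with overlap, 45 by test status, 14 with a 0 beside 100 FPKM or more, and 32 duplicates. The remaining 13042 were fitted on log2(FPKM + 1), a pseudocount that understates changes of low genes. The fit used limma 3.58.1 (R 4.3.3) with the trend option, Benjamini-Hochberg adjustment over all genes and a threshold of 0.05. Ifit3, Igtp and Slfn1 were fitted in the filtered table, of which 9585 rows were tested. The fit was tested on simulated data. With 3 libraries a time, 0.1 is the smallest p an exact permutation test allows. Tables were handled with pandas 2.3.3 on Python 3.11.15.

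Members were matched by symbol. The members and all gene lists were chosen with earlier results of these data known. Every tested member is named; signalling genes are named where they were called and a mean was 5 FPKM or more, except 1 that is counted but not reported here, and other genes named beside them are said to be chosen after their values were seen or are examples of a list. Alternatives were other pseudocounts, filters, normalizations, variance priors, the replicate block and leaving out each library. Promoters are RefSeq (GRCm38.p6); gene positions are GENCODE on GRCm38.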

Additional observations from a re-analysis of the deposited data

How the results depend on the processing

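Over the 16 alternatives to the fit, 28 to 32 members were called lower and 0 higher. With 1 library left out the count of members was 28 to 30 and their median log2 change -1.16 to -1.01; with quantile normalization the median was -1.28, beside a library SD of 0.12. Of 573 member values 549 kept direction and call, 18 lost the call (Ifih1, Trim25 and Parp9), 2 gained it and 4 turned in sign: Bst2 to -0.15 with quantile normalization and to -0.061 without 3-day replicate 1, and Ifitm2 to -0.094 without 3-day replicate 1 and to -0.033 without 7-day replicate 2. With 1 library left out Bst2 ranged from -0.061 to 0.21 and Ifitm2 from -0.094 to 0.24. Ifit3 was called under every alternative run. Among all genes the count called lower was 1204 with the 5 FPKM filter and 1433 in the filtered table; leaving out 1 library gave 1697 to 2565 lower and 1572 to 2207 higher, both lowest without 7-day replicate 2. With quantile normalization the counts were 1809 lower and 2317 higher, and with centring on the median gene 2321 and 2920; the median of all genes moved from -0.04 to 0.05. Signalling genes called lower were 4 with centring (9 higher) and 4 to 8 with 1 library left out. The cause of these moves was not tested.

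Deviations of same-numbered libraries correlated at 0.0995, 0.0054 and 0.0047, and not every library correlated best with its own number. The labels do not say whether the numbers pair the libraries, and correlations this small cannot decide it. The main fit did not use the number. With the replicate number as a block 31 members were lower, 2425 genes were lower and 2450 higher, and 6 signalling genes lower and 6 higher; Eif2ak2 was then called (adjusted p = 0.0429) and Parp9 was not. The labels do not say whether libraries are separate mice, FPKM hides depth, and no uninjured cord is among the samples.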

Other observations

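Slfn4 and Slfn1, both chosen after their values were seen, had the largest changes of the related families. Slfn4, a Schlafen gene of the monocyte lineage in mice, measured 1.69, 2.76 and 2.65 FPKM at 7 days, against 44.1, 64.2 and 71.7 FPKM at 3 days, with a log2 change of -4.17 ± 0.21 (SE; adjusted p = 7.58e-05). Slfn1, which had a row only in the filtered table, measured 8.23, 9.81 and 8.63 FPKM at 7 days, against 37.4, 34.5 and 43.3 FPKM at 3 days, with a log2 change of -1.99 ± 0.12 (SE; adjusted p = 5.24e-05). The 7-day libraries of both genes lay below all 3-day libraries. Slfn2 measured 138, 147 and 147 FPKM at 7 days, against 206, 142 and 197 FPKM at 3 days and was not called (log2 change -0.31 ± 0.15 SE, adjusted p = 0.138).

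Neighbouring members shared their lowest 3-day library in several pairs. Among all 37 tested members this library was replicate 1 for 20, replicate 2 for 17 and replicate 3 for 0, so members often share it. Whether neighbours shared it more often than other members was not tested. The lowest 3-day library was replicate 2 for both genes of the pairs Rsad2 and Cmpk2, Oasl1 and Oasl2, and Parp9 and Dtx3l. It was replicate 1 for both Oas2 and Oas3. Parp9 and Dtx3l have 1 locus in the authors' table. Ifit2 was lowest in replicate 2, while Ifit3 was nearly tied, at 57.56 FPKM in replicate 1 and 57.66 FPKM in replicate 2.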
